A study of Mus musculus with 4 samples.

Results

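The sites described here are the RAD21 peaks of mouse limbs that carry the transgene TgN(38-40), set against those of wild-type limbs. They were taken from the 3 RAD21 peak lists called on the mm10 genome, restricted to the 19 autosomes. Peaks of different lists that shared at least 1 bp were joined into 1 site, which gave 21301 sites. They came from 20364 peaks of the wild-type list, 4053 peaks of TgN(38-40) replicate 1 and 14459 peaks of TgN(38-40) replicate 2. The 5 mm10 lists of RAD21 and CTCF together held 89856 peaks on all chromosomes.

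The study asked what happens when a regulatory region of the HoxD locus, CS38-40, is moved to a foreign chromosomal domain. The TgN(38-40) limbs were TgN(38-40)/Wt; del(CS38-40)-/- and came from B6CBAF1 mice. In them, 1 chromosome 10 carried the insert, the other was wild-type, and the region was deleted from both copies of chromosome 2. RAD21 was measured in their whole limbs at E12.5 by ChIPmentation with the Abcam antibody ab992, in 2 replicates of pooled limbs, from a line that goes back to 1 integration event. The wild-type list is a single RAD21 ChIP-seq library of E12.5 whole limbs from an earlier study by the same group.

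RAD21 is the subunit that closes the ring of cohesin, the complex that holds sister chromatids together and extrudes chromatin loops. Extruding cohesin is halted at CTCF, a zinc finger protein that binds a long, oriented DNA motif, so in most tissues RAD21 peaks lie mainly on CTCF peaks. In the developing limb such loops frame the domains in which enhancers reach the Hox genes and other patterning genes.

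Genotype, assay and study of origin all differed between the wild-type library and the TgN(38-40) libraries, and cannot be told apart in any comparison between them. With 1 wild-type library no test of the genotype was possible, so every difference below is a description of these 3 lists. Intervals are 95% Wilson intervals and cover the counting of sites only, not the spread between embryos. A site without a peak fell below the threshold of its list, which does not show that RAD21 was absent. Sites were compared by their rank within a list, from the highest to the lowest -log10 q, the strength that MACS2 gives each peak. A percentile of 0 is the top of a list and 100 its bottom. The TgN(38-40) lists also differed from each other, in length as above and in median peak width, which was 199 bp in replicate 1, 285 bp in replicate 2 and 348 bp in wild-type.

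Examples of the DNA under these sites are shown first to let the classes be read at the level of the CTCF motif. Each line gives the summit and 50 bp on either side, on the plus strand of mm10, with the best match to the CTCF motif in capitals. The motif was learned from strong CTCF peaks of the same limbs and reads CNNNNGCGCCCCCTNGTGG, or CCACNAGGGGGCGCNNNNG on the other strand, where a letter is given only if at least 1 base was in the majority. The first line is the top site of the wild-type list, in an intron of Cdk14. The next is a site near Gmpr that stood near the top of all 3 lists. The Men1 and Snrpf sites are strong wild-type sites without a TgN(38-40) peak, and the Tank site is its reverse, a site of both replicates without a wild-type peak. The Map2 site, also of both replicates, held neither a motif nor a CTCF peak.
Cdk14 intron, chr5:4962099-4962199: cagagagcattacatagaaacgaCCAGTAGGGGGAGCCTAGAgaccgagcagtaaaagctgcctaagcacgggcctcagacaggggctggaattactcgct
near Gmpr, chr13:45477393-45477493: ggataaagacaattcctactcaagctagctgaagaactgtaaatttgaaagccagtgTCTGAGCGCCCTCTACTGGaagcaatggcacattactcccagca
near Men1, chr19:6331765-6331865: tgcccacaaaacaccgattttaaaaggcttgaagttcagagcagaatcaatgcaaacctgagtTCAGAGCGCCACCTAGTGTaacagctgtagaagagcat
near Snrpf, chr10:93611549-93611649: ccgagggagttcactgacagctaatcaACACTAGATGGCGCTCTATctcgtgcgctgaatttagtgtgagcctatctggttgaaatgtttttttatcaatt
near Tank, chr2:61402408-61402508: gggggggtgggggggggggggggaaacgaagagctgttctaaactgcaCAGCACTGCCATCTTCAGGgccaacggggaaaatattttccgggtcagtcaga
near Map2, chr1:66105364-66105464: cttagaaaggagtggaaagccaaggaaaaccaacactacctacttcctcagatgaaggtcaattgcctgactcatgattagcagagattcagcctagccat

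Most RAD21 sites were present in both genotypes. All 3 lists shared 3830 sites, and another 9666 sites were in the wild-type list and in replicate 2. The wild-type list alone held 6711 of its 20359 sites, which is 33%. Replicate 2 recovered 66.3% of the wild-type sites and replicate 1 recovered 19.6%. Of the 14590 sites of the TgN(38-40) lists, 942 had no wild-type peak, which is 6.46%. Of these 942, 905 were in replicate 2 alone, 27 in replicate 1 alone and 10 in both. The remaining class, wild-type plus replicate 1, held 152 sites.

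**Figure D1:**
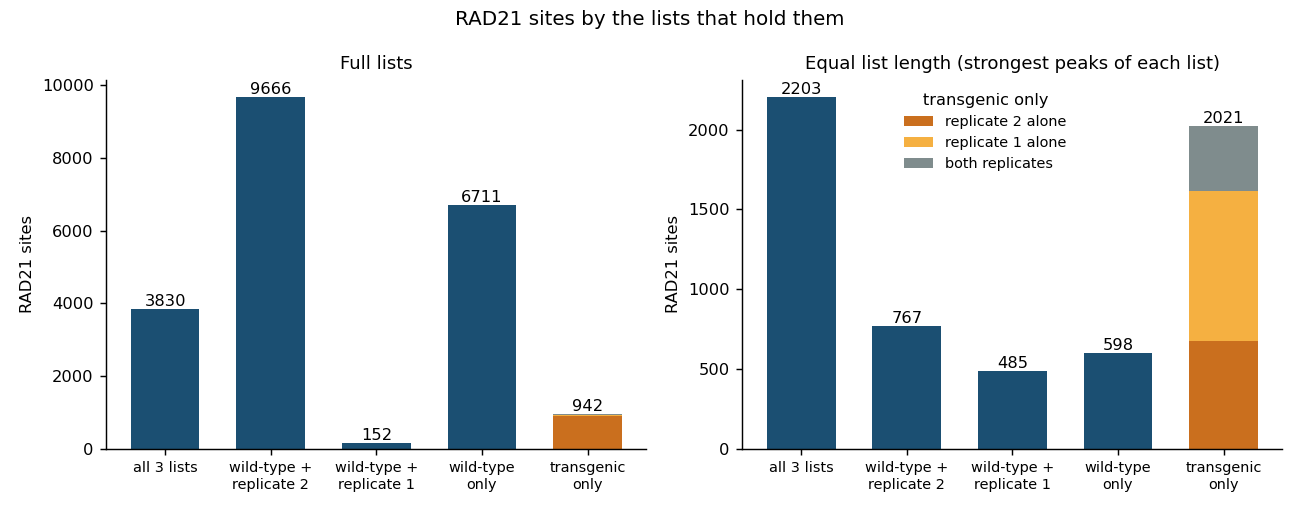
Number of autosomal RAD21 sites (vertical axis) in each class, for the full lists (left) and for the 4053 strongest peaks of each list (right), with the transgenic-only class split by replicate. In the full lists the transgenic-only class is the smallest of the 4 main classes with 942 sites; at equal length it holds 2021 sites, of which 939 belong to replicate 1 alone.

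The classes differed in what lay at their sites. CTCF peaks from limbs of this genotype, in at least 1 of the CTCF replicates, overlapped 98.7% of the sites in all 3 lists (interval 98.3% to 99.0%) and 91.4% of the sites of wild-type plus replicate 2. The share was 57.5% for wild-type only (56.3% to 58.7%) and 61.7% for transgenic only (58.5% to 64.7%), against 80.3% of all sites. These shares were not matched for strength. CTCF peaks overlapped 99.8% of the 2036 strongest and 34.2% of the 2036 weakest wild-type sites. The wild-type-only and transgenic-only classes therefore both lay below these shared classes, and their intervals overlapped only at the edges. The small class of wild-type plus replicate 1 was lower still, at 34.9% (27.8% to 42.7%).

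Distance to genes moved the other way. Promoter sites, with a summit within 1000 bp of the transcription start site (TSS) of a protein-coding gene, made up 12.1% of all sites. They were 5.56% of the sites in all 3 lists (4.88% to 6.33%) and 7.56% of wild-type plus replicate 2. For wild-type only and transgenic only the shares were 21.1% (20.2% to 22.1%) and 21.3% (18.8% to 24.1%). These shares were not matched for strength either. The promoter share was 5.89% of the 2036 strongest and 31.5% of the 2036 weakest wild-type sites. The median distance to a TSS fell from 26.6 kb in all 3 lists to 20.4 kb, 15.3 kb in transgenic only and 14.0 kb in wild-type only. Among sites without a CTCF peak, 6.12% of the 49 sites in all 3 lists were promoters, against 29.7% of 2853 in wild-type only and 31.6% of 361 in transgenic only.

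The DNA itself followed the CTCF peaks. Within 100 bp of the summit, 94.9% of the sites in all 3 lists held a match to the motif, as did 92.8% of wild-type plus replicate 2, 69.7% of wild-type only and 64.9% of transgenic only. Windows of the same size placed 1000 bp away held one in 5.00% of cases, the share at which the cutoff was set. A match was also found at 44.6% of the wild-type-only sites that overlapped no CTCF peak. This was below the 50.3% found over all sites without a CTCF peak, so it did not mark out the class. The windows placed 1000 bp away were not matched to the sites for GC content. CTCF itself was weaker at the sites of a single genotype: the median percentile of the overlapping peak in CTCF replicate 2 was 25.7 for all 3 lists, 38.3 for wild-type plus replicate 2, 51.6 for wild-type only and 48.5 for transgenic only.

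**Figure D2:**
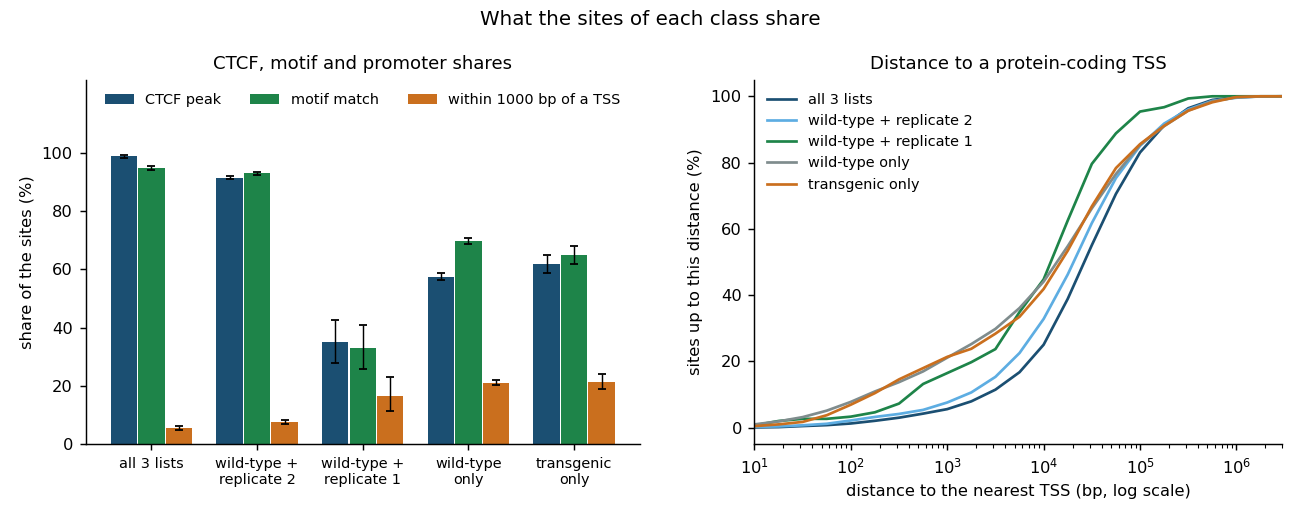
Left, share of the sites of each class (vertical axis, %) with a CTCF peak, with a motif match within 100 bp of the summit and within 1000 bp of a TSS, with 95% Wilson intervals. Right, cumulative share of sites (%) against the distance to the nearest TSS (bp, log axis); the sites in all 3 lists lie farthest from genes, with a median of 26.6 kb against 14.0 kb for wild-type only.

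The strongest shared sites stood high in every list. The site in the Cdk14 intron ranked 1 in wild-type, 473 in replicate 1 and 97 in replicate 2. The intergenic site near Glrx3, which encodes a glutaredoxin, ranked 2, 150 and 25, and the site near Gmpr, which encodes GMP reductase, ranked 3, 25 and 6. All 3 overlapped CTCF peaks of both CTCF replicates. The strongest sites missing from replicate 1 alone were an intergenic site 115319 bp from the TSS of Syk, a tyrosine kinase of immune receptors (210 in wild-type, 827 in replicate 2), a site in an intron of Piwil4, a piRNA pathway gene (259 and 298), and a site in an intron of the non-coding gene Gm44577 (351 and 372).

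No wild-type-only site came from the top of the wild-type list. The strongest, 4215 bp from Gm10053 on chromosome 19, ranked 2323. It was followed by the site 3164 bp from Men1, which encodes the tumour suppressor menin, at rank 2357, and by the site 21893 bp from Snrpf, a gene of the spliceosome, at rank 2694. All 3 had a motif and a CTCF peak in both CTCF replicates, at percentiles of 66.6, 81.8 and 70.2 in CTCF replicate 2. No TgN(38-40) RAD21 summit lay within 14251 bp of the first, 26789 bp of the second or 17456 bp of the third. In the whole class, 56 of the 6711 sites had a TgN(38-40) summit within 500 bp, so a near miss of the 1 bp overlap was rare.

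The share of wild-type sites found in the TgN(38-40) limbs fell with their wild-type rank. The wild-type list was divided by rank into 10 groups of nearly equal size, from 1, the strongest, to 10. Replicate 2 held 2036 of 2036 sites in group 1, 92.8% in group 4, 53.0% in group 7 and 8.55% in group 10. Replicate 1 held 81.8% in group 1, 14.8% in group 4, 2.70% in group 7 and 0.589% in group 10. The TgN(38-40) replicates thus differed from each other at every rank by more than the intervals of the counts. These intervals do not cover list length, and the 4053 peaks of replicate 1 can match only a part of the 20364 wild-type peaks. With the 4053 strongest peaks of each list, replicate 1 held 66.3% of the wild-type sites and replicate 2 held 73.3%. In the reverse direction, the strongest of 5 groups of replicate 2 sites was in the wild-type list in 99.8% of cases and the weakest in 79.1%, whereas in replicate 1 the share lay between 98.5% and 99.8% in all 5 groups.

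In the middle wild-type rank groups, promoter sites were found in replicate 2 less often than distal sites of the same CTCF status. Over groups 5 to 8, where replicate 2 recovered 60.1% of 8143 sites, it held 66.8% of the distal sites with CTCF (65.6% to 67.9%), 50.6% of the promoter sites with CTCF (46.8% to 54.4%), 40.1% of the distal sites without CTCF (37.4% to 42.8%) and 20.6% of the promoter sites without CTCF (15.8% to 26.4%). Over the full list the shares were 77.9%, 59.8%, 27.5% and 9.12%. The categories were not spread alike within groups 5 to 8. Group 8 held 106 of the 223 promoter sites without CTCF and 1293 of the 6002 distal sites with CTCF. In the same order, the shares were 85.6%, 72.3%, 65.7% and 30.0% in group 5 alone. In group 8 alone they were 42.2%, 31.9%, 24.9% and 17.0%. At sites with a CTCF peak in groups 5 to 8, the median CTCF percentile was 41.8 where replicate 2 had a peak and 50.1 where it had none.

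**Figure D3:**
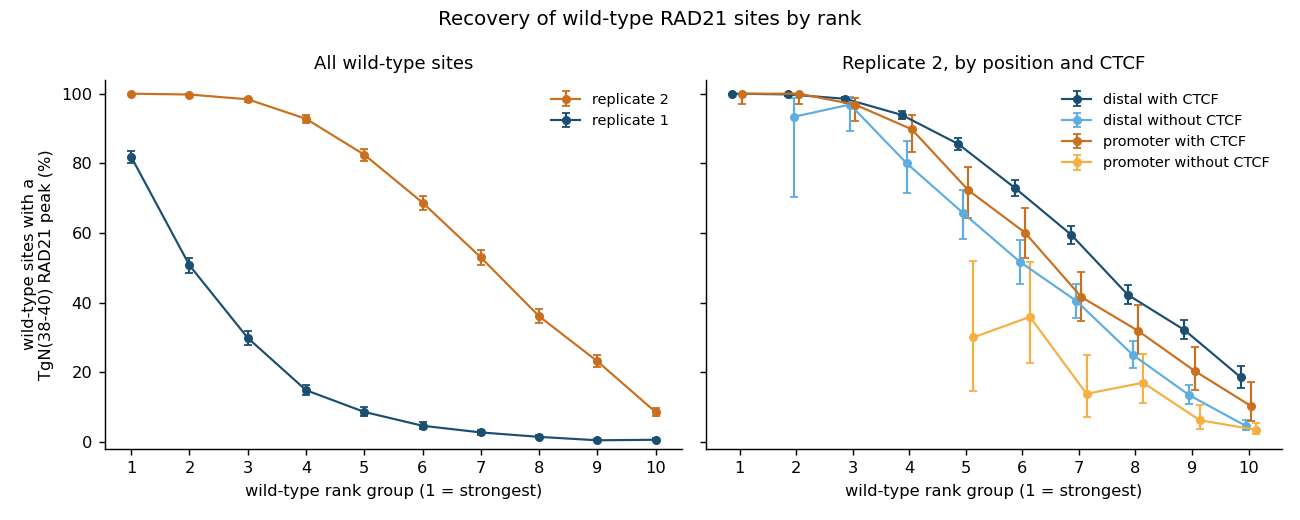
Share of wild-type RAD21 sites with a TgN(38-40) peak (vertical axis, %) in each of 10 wild-type rank groups (horizontal axis, 1 is the strongest), with 95% Wilson intervals; points with fewer than 10 sites are not drawn. Left, both replicates. Right, replicate 2 by position and CTCF, where from group 5 on distal sites with CTCF stay highest and promoter sites without CTCF stay lowest.

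Replicate 1 did not order these categories in the same way. Over the same rank groups it held 4.07% of the distal sites with CTCF (3.59% to 4.60%), 3.05% of the promoter sites with CTCF, 5.71% of the distal sites without CTCF and 7.62% of the promoter sites without CTCF (4.81% to 11.9%). The order of promoter sites without CTCF against distal sites with CTCF was therefore reversed between the replicates of the same genotype. The sites behind this reversal were looked up after these values had been seen, and most of them lay on tRNA genes.

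Transfer RNA genes are short and are transcribed by RNA polymerase III, which is recruited through the factor TFIIIC. TFIIIC binds inside the gene at the A box and the B box, and cohesin or its loaders have been found at such genes in other organisms. Of the 386 tRNA genes annotated by RefSeq on the autosomes of GRCm38, 155 overlapped a RAD21 peak in wild-type, 106 in replicate 1 and 2 in replicate 2. Replicate 1 shared nearly all of its genes with wild-type, and a single gene with replicate 2. CTCF peaks of the same limbs overlapped 8 tRNA genes in CTCF replicate 1 and 9 in CTCF replicate 2.

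Examples of tRNA genes with strong peaks in replicate 1 are printed from their first to last base on their own strand. Capitals mark the letters GTTCGANNC, the core of the B box, which 235 of the 386 genes hold on their own strand. The genes shown hold these letters, and their sites had neither a CTCF peak nor a CTCF motif. Not all strong tRNA sites of replicate 1 were alike. The site at n-TEctc10, at rank 34, overlapped peaks of both CTCF replicates and held the CTCF motif. The genes n-TMcat11 and n-TPtgg8, at ranks 62 and 70, lacked the letters GTTCGANNC.
n-TRccg1 (tRNA-Arg), chr11:107012866-107012938, plus strand: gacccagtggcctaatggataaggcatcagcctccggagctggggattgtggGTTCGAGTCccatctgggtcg
n-TVcac7 (tRNA-Val), chr11:48818542-48818614, plus strand: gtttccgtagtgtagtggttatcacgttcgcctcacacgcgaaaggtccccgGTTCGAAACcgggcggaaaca
n-TYgta9 (tRNA-Tyr), chr5:30888083-30888171, plus strand: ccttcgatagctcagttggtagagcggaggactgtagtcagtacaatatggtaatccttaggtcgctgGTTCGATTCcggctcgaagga

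The site at n-TRccg1 ranked 27 of 4053 in replicate 1 and 6188 of 20364 in wild-type, and had no peak in replicate 2. The site at n-TVcac7, 1181 bp from the TSS of Trim41, ranked 29 and 8336. The site at n-TYgta9 ranked 58 in replicate 1 against 9541 in wild-type. Each of the 3 was near the top of replicate 1, in the middle of the wild-type list and absent from replicate 2, although replicate 2 had more peaks than replicate 1.

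These sites made up most of 1 class. A tRNA gene was overlapped by 92 of the 152 sites of wild-type plus replicate 1, 60.5% (52.6% to 67.9%), and by 85 of the 99 sites of that class without CTCF. The share was 0.157% of the sites in all 3 lists, 0.0207% of wild-type plus replicate 2, 0.581% of wild-type only and 0.667% of all sites. The letters GTTCGANNC, searched on both strands within 100 bp of the summit, were present at 43.4% of the class and at 0.751% of all sites, and its median ratio of observed to expected CpG was 0.761 against 0.251 for all sites.

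The difference between the replicates remained at matched wild-type rank. In wild-type rank groups 4 and 5, replicate 1 held 34 of 35 tRNA sites, 97.1% (85.5% to 99.5%), and replicate 2 held 3, 8.57% (2.96% to 22.4%). For the other sites of the same groups with CTCF the shares were 11.2% in replicate 1 and 89.3% in replicate 2, and without CTCF 7.22% and 75.5%. In groups 6 and 7 replicate 1 held 43 of 48 tRNA sites and replicate 2 held 1. Over all groups 98 of the 139 wild-type tRNA sites were in replicate 1 and 8 in replicate 2. Of those 8, 7 overlapped a CTCF peak. A site counted as a tRNA site when its extent, joined over the 3 lists, overlapped a tRNA gene. The replicate 2 peak of such a site need not lie on the gene itself. Peaks of replicate 2 overlapped only 2 tRNA genes. The sites were spread over 18 autosomes, with 42 of 142 on chromosome 13 and 24 on chromosome 11.

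**Figure D4:**
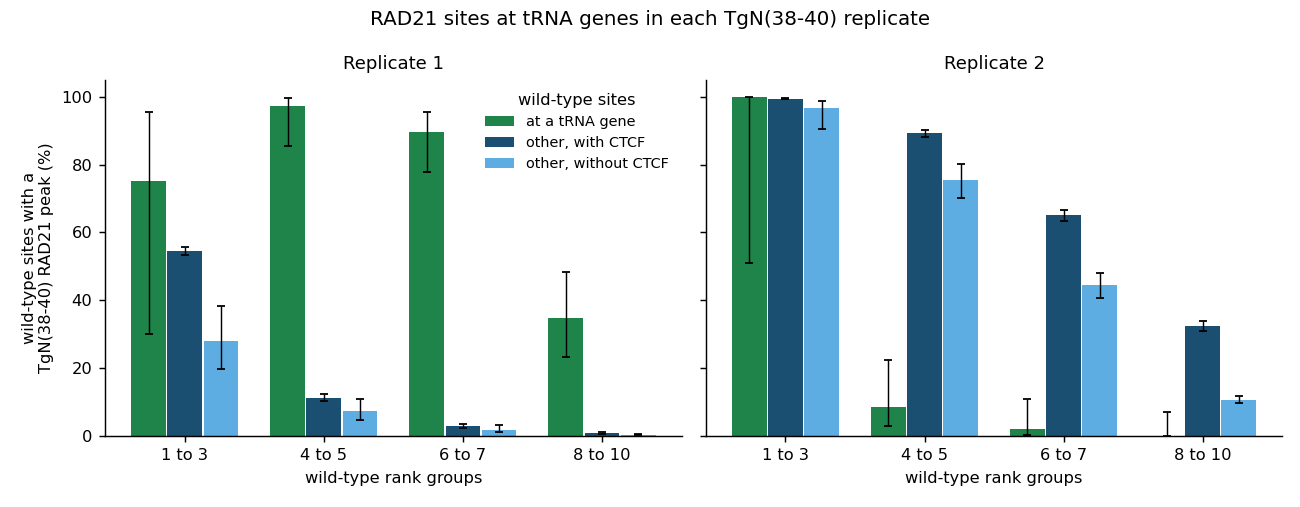
Share of wild-type RAD21 sites (vertical axis, %) that had a peak in TgN(38-40) replicate 1 (left) or replicate 2 (right), by wild-type rank group (horizontal axis) and by whether the site overlapped a tRNA gene or a CTCF peak, with 95% Wilson intervals. In groups 4 and 5 the tRNA sites reach 97.1% in replicate 1 and 8.57% in replicate 2.

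With the tRNA sites left out, the promoter sites without CTCF in rank groups 5 to 8 were recovered at 0.488% in replicate 1, 1 of 205, and at 22.4% in replicate 2. The distal sites with CTCF were then recovered at 3.95% and 66.8%. The reversal between the replicates was then no longer present. Its loss is no separate evidence, because the tRNA sites were found by looking up the sites behind the reversal. Wild-type and replicate 1, which came from different genotypes and assays, shared the peaks at tRNA genes, and replicate 2 did not. At these genes replicate 1 was thus closer to wild-type than to the other replicate of its genotype. What set the replicates apart was not tested.

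Among shared sites, the order of strength was more alike between wild-type and replicate 2 than between the TgN(38-40) replicates. Spearman's rho of -log10 q was 0.77 across the 13496 sites shared by wild-type and replicate 2, 0.42 across the 3982 shared by wild-type and replicate 1, and 0.44 across the 3840 shared by the TgN(38-40) replicates. On the 3830 sites of all 3 lists, which are the same points for each pair, the values were 0.68, 0.46 and 0.44. Sites are not independent replicates, and these values describe the lists. The rho between wild-type and replicate 2 was 0.77 for distal sites with CTCF, 0.72 for promoter sites with CTCF, 0.43 for 792 distal sites without CTCF and 0.41 for 87 promoter sites without CTCF. These values were not matched for the range of strength. In wild-type rank group 1, replicate 2 held 1912 distal sites with CTCF and 4 without.

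The ranks of individual sites moved widely. Within the 13496 shared sites, percentiles of wild-type and replicate 2 differed by a median of 11.8 points, and 1316 sites stood over 25 points nearer the top in replicate 2 while 1383 stood over 25 points nearer the top in wild-type. Promoter sites with CTCF stood nearer the top of replicate 2 in 41.5% of cases. Their median shift was -3.56 points, where a negative value is nearer the top of wild-type, against -0.09 points for distal sites with CTCF. The largest shift toward replicate 2 was at a promoter site 134 bp from a TSS of Itga9, an integrin subunit gene, which ranked 17245 in wild-type, 1365 in replicate 1 and 1178 in replicate 2. The site near Slc7a10, an amino acid transporter gene, followed with ranks of 19363, 703 and 1834. The third, an intergenic site 36585 bp from Mup16, a major urinary protein gene, ranked 15042 in wild-type and 901 in replicate 2, without a peak in replicate 1. Replicate 1 thus had a peak at the first and second of these sites and none at the third.

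The 3 largest shifts the opposite way were as follows. A site 6141 bp from Nrp2, which encodes a semaphorin receptor, ranked 1732 in wild-type and 13964 in replicate 2. A site 2208 bp from Spry2, an antagonist of FGF signalling, ranked 2884 and 14047, and a site in an intron of Adgrl2, a latrophilin gene, ranked 3432 and 14067. Replicate 1 had no peak at the first and second and ranked the Adgrl2 site at 3453 of its 4053.

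The size of each class depended on the length of the lists. When only the 4053 strongest peaks of each list were kept, 2203 of 6074 sites were in all 3 lists, 767 in wild-type plus replicate 2, 485 in wild-type plus replicate 1, 598 in wild-type only and 2021 in transgenic only. Wild-type only then made up 14.8% of the wild-type sites, and transgenic only 36.9% of the TgN(38-40) sites. These shares cannot be set against each other, because wild-type only requires absence from 2 lists and transgenic only absence from 1. List by list the shares were even. Replicate 2 held 73.28% of the wild-type sites, and wild-type held 73.30% of the replicate 2 sites. For replicate 1 the shares were 66.3% and 66.7%. The transgenic-only sites were 939 of replicate 1 alone, 677 of replicate 2 alone and 405 of both. Nearly all had a wild-type peak further down the full list: 904 of the 939, 674 of the 677 and 403 of the 405. Of the 598 wild-type-only sites, 594 were in the full replicate 2 list.

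At this length the lists were about as far from each other within the transgenic genotype as between genotypes. Replicate 1 held 66.3% of the wild-type sites and replicate 2 held 73.3%, while replicate 2 held 64.7% of the replicate 1 sites. CTCF peaks overlapped 99.9% of the sites in all 3 lists, 98.2% of wild-type only and 90.9% of transgenic only. The lower share came from replicate 1 alone, at 82.7%, against 97.6% for replicate 2 alone. Of the 162 sites of replicate 1 alone without CTCF, 88 overlapped a tRNA gene. Promoters were 4.86% of the sites in all 3 lists, 9.20% of wild-type only, 9.37% of replicate 1 alone and 3.40% of replicate 2 alone.

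The 10 sites present in both TgN(38-40) replicates without a wild-type peak were the transgenic-only sites seen in more than 1 library. The site near Tank, which encodes an adaptor of innate immune signalling, ranked 1637 in replicate 1 and 973 in replicate 2, and no wild-type summit lay within 52167 bp. Near Map2, a neuronal microtubule gene, a site without CTCF or motif ranked 1337 and 857, with a wild-type summit 673 bp away. Promoter sites of Ube2e3 and Usp42, which encode a ubiquitin-conjugating enzyme and a deubiquitinase, ranked 1585 and 9233, and 3195 and 5119. Their windows of 201 bp had a GC content of 79.6% and 83.1%, against a median of 49.8% over all sites. A further 5 lay near Gm10719, Cst10, Gsta3, Alg9 and Lbh, and ranked between 530 and 4051 in replicate 1. The strongest transgenic-only site of replicate 2, in an intron of Gm1604a, ranked 402 there and had no peak in replicate 1.

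The sites near chosen gene groups were counted within 5000 bp of a TSS, where 2349 of the 5005 wild-type sites at all protein-coding genes, 46.9%, were wild-type only. Near 48 limb patterning genes, 20 of 33 wild-type sites were wild-type only, 60.6%, with a median wild-type percentile of 63.2 against 62.3 at all genes. The promoter sites of Prrx1, a mesenchymal transcription factor gene, and Runx2, the regulator of bone formation, ranked 15133 and, for the 2 Runx2 sites, 11710 and 19371 in wild-type, without a TgN(38-40) peak. Gli3, which encodes the main repressor of Hedgehog target genes in the limb, had a wild-type-only site at rank 18270 and a transgenic-only site at rank 13045 of replicate 2, 139 bp from a TSS. Fgfr1, a receptor for FGF ligands, likewise had a wild-type-only and a transgenic-only site, at ranks 13808 of wild-type and 13131 of replicate 2.

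The strongest wild-type-only sites of the group were a site 2755 bp from Lmx1b, a gene of dorsal limb identity, at rank 5648, and a promoter site of Gli2, an activator of Hedgehog target genes, at rank 7255, both with CTCF. Shared sites of the group had wild-type ranks from 599 to 15780. A site 2937 bp from Wnt5a, a ligand of limb outgrowth, ranked 3265 in wild-type, 1543 in replicate 1 and 1932 in replicate 2. The promoter site of Hoxa7, within 5000 bp of the listed gene Hoxa9, ranked 599 in wild-type and 4119 in replicate 2, and the site 2216 bp from Sox9, the regulator of cartilage, 2043 and 3693, both without a peak in replicate 1. At Epha4, which encodes an ephrin receptor, 1 site was in all 3 lists, at ranks 1533, 1093 and 7070, and 3 weaker sites, at wild-type ranks from 13651 to 20069, were wild-type only.

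At the HoxD cluster and its flanking genes, 2 of 8 wild-type sites were wild-type only. The site 4019 bp from Hoxd3 was strong in every list, at ranks 391, 350 and 414. A site 1874 bp from the nearest TSS, between Hoxd13 and Hoxd12, ranked 8840 in wild-type, 2005 in replicate 1 and 3521 in replicate 2. The 2 wild-type-only sites were promoter sites of Hoxd9 and Lnpk without CTCF, at ranks 20118 and 17657 near the bottom of the wild-type list.

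Of 11 wild-type sites at classic CTCF loci, among them imprinted genes, 8 were wild-type only. They included 3 within 5000 bp of a TSS of Peg3, an imprinted gene, between ranks 14690 and 20280. A further site of that group, 11 bp from a TSS of Sgce and within 5000 bp of Peg10, was transgenic only at rank 14060 of replicate 2. Near the genes of cohesin and its regulators 3 of 8 were wild-type only, among them a promoter site of Smc3, a core cohesin subunit gene, at rank 15010. The site 21 bp from a TSS of Pds5b, a cohesin release factor gene, ranked 2497 in wild-type and 6389 in replicate 2. Near the genes of the host domain on chromosome 10 and its neighbours 4 of 5 were wild-type only, and near cytosolic ribosomal protein genes 5 of 16 were. At genes of blood, endothelial and other non-mesenchymal cells none of 4 was. Apart from the limb patterning genes each of these counts rests on fewer than 20 sites.

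The region carried by the transgene held 2 sites. In wild-type limbs the region CS38-40 lies on chromosome 2, while in these TgN(38-40) limbs its reads can come only from the insert on chromosome 10, which also holds a further, partial copy with CS38. The first site, at chr2:75137823-75138343, stood at percentile 17.2 of wild-type, 18.6 of replicate 2 and 78.7 of replicate 1. The other, at chr2:75152492-75152764, ranked 19894 of 20364 in wild-type and had no peak in either replicate. Around the insertion, 11 sites lay between 96132121 and 97376227 on chromosome 10, of which 8 had a TgN(38-40) peak, 4 of them in both replicates. The 3 others were wild-type only and weak, at ranks 17811, 18506 and 19550, and 2 of these were the promoter sites of Btg1, an antiproliferative gene. Since the carrier chromosome cannot be told apart from its wild-type homologue in these lists, the values mix both.

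Neither chromosome 2 nor chromosome 10 stood apart. The share of wild-type sites that were wild-type only was 33.25% on chromosome 2 and 33.21% on chromosome 10, against 33% on all autosomes. It ranged from 30.5% on chromosome 15 to 36.5% on chromosome 4, and the interval included the genome-wide share on 17 of 19 chromosomes. The 2 exceptions, both above it, were chromosome 1 with 35.7% (33.3% to 38.2%) and chromosome 4 (34.0% to 39.1%). Transgenic-only sites made up between 5.00% of the TgN(38-40) sites, on chromosome 16, and 7.80%, on chromosome 13. The CTCF share of wild-type sites ranged from 73.2% on chromosome 13 to 87.1% on chromosome 7.

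**Figure D5:**
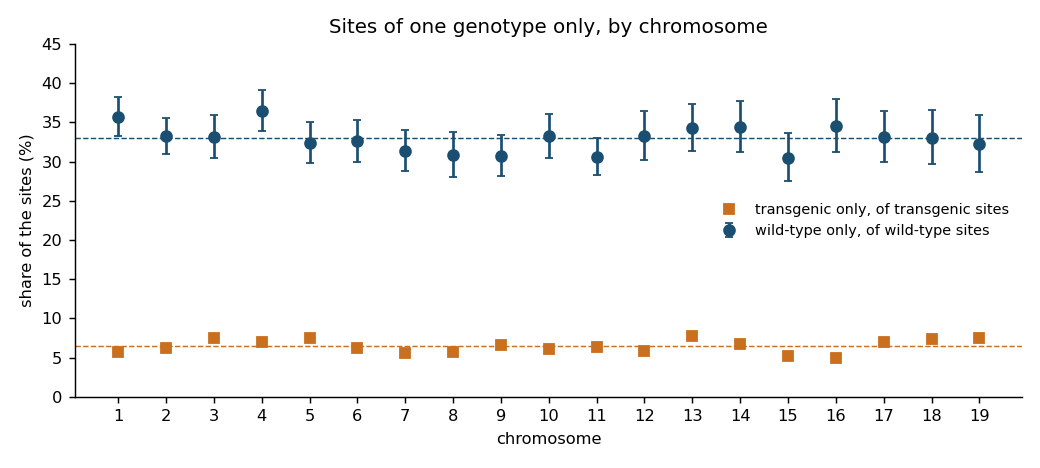
Share (vertical axis, %) of wild-type RAD21 sites that were wild-type only, with 95% Wilson intervals, and of TgN(38-40) sites that were transgenic only, on each autosome (horizontal axis). Dashed lines give the shares over all autosomes, 33% and 6.46%; chromosomes 2 and 10 lie on the upper line.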

How the data were processed

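Per the labels and the study's methods, the authors trimmed reads with cutadapt, mapped them with Bowtie2 to mm10 and called peaks in each library with MACS2 at default parameters. The submitters' processing notes list MACS2 2.1.1.20160309, Bowtie2 2.3.4.1 and cutadapt 1.16. Each deposited peak has a fold enrichment over the local expectation, which is a ratio, and a q-value on the -log10 scale. Read numbers and the MACS2 control are not given in the sources used here, so depth is unknown. Lists on the custom genome and input libraries were not used.

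Sites were merged at 1 bp of overlap, classed, ranked by -log10 q and annotated with GENCODE M21 and RefSeq on GRCm38. The 19 bp motif was learned from 1000 peaks of CTCF replicate 2. Members and lists were chosen with earlier results of these data known; the motif and tRNA analyses came after seeing the sites. Named sites were the 3 strongest of each class, the 3 largest rank shifts each way, every site in the fosmid or near the insertion, and sites near listed genes. Some of these items are not reported here. Classing was tested on simulated data. Scripts ran under Python 3.11.15 with pandas 2.3.3, scipy 1.17.1, numpy 2.4.6, matplotlib 3.10.9 and pysam 0.24.0.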

Additional observations from a re-analysis of the deposited data

Results flagged for a closer look

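Peaks outside the autosomes were not part of the comparison. Chromosome X carried 413 RAD21 peaks in the wild-type list, 18 in TgN(38-40) replicate 1 and 302 in TgN(38-40) replicate 2. They made up 1.98%, 0.439% and 2.04% of the peaks of each list. The lower share in replicate 1 set it apart from the other replicate of the same genotype as well as from wild-type. Replicate 1 was also the shortest list, and the shares were not compared at equal list length.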

How the results depend on the processing

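The order of the classes held under the alternatives that gave both shares: wild-type only had the higher promoter share and the lower CTCF share than the sites in all 3 lists. Asking for no peak of the other genotype within 500 bp, also chosen after seeing the data, moved none of its 6 values. The values below left the 95% interval of the main value or, for counts, changed by over 1.5 times. The others stayed within these bounds. An exception is the ranges for leaving out either TgN(38-40) replicate, which also include values within these bounds. Leaving out replicate 1 moved 3 values and left 10 within them, and leaving out replicate 2 moved 9 and left 4. When peaks had to overlap reciprocally by 50%, the classes held 2275 (all 3 lists) and 3974 (transgenic only) sites and CTCF shares were 93.3% (wild-type plus replicate 2), 62.4% (wild-type only) and 84.2% (transgenic only). There, promoter shares were 6.38% (wild-type plus replicate 2), 19.9% (wild-type only) and 12.8% (transgenic only) and recovery was 11.7% in replicate 1 and 59.4% in replicate 2. Likewise, rho with wild-type was 0.45 for replicate 1 and the wild-type-only share was 39.7% on chromosome 2 and 39.4% on chromosome 10. With a -log10 q of at least 5 in every list, the classes held 2049 (all 3 lists) and 334 (transgenic only) sites and CTCF shares were 99.5% (all 3 lists), 94.4% (wild-type plus replicate 2), 67.2% (wild-type only) and 71.9% (transgenic only). There, promoter shares were 6.43% (wild-type plus replicate 2), 16.7% (wild-type only) and 14.4% (transgenic only) and recovery was 10.8% in replicate 1 and 56.6% in replicate 2. Likewise, rho with wild-type was 0.30 for replicate 1 and 0.73 for replicate 2 and the wild-type-only share was 44.9% on chromosome 2 and 42.9% on chromosome 10. At equal list length by -log10 q, the classes held 2203 (all 3 lists), 767 (wild-type plus replicate 2), 598 (wild-type only) and 2021 (transgenic only) sites and CTCF shares were 99.9% (all 3 lists), 99.7% (wild-type plus replicate 2), 98.2% (wild-type only) and 90.9% (transgenic only). There, promoter shares were 4.86% (all 3 lists), 5.61% (wild-type plus replicate 2), 9.2% (wild-type only) and 6.68% (transgenic only) and recovery was 66.3% in replicate 1 and 73.3% in replicate 2. Likewise, rho with wild-type was 0.45 for replicate 1 and 0.53 for replicate 2 and the wild-type-only share was 16.7% on chromosome 2 and 16.4% on chromosome 10. At equal list length by fold, the classes held 2112 (all 3 lists), 750 (wild-type plus replicate 2), 620 (wild-type only) and 2143 (transgenic only) sites. Ranked by fold, rho with wild-type was 0.73 for replicate 2. When both CTCF replicates had to have the peak, CTCF shares were 94.9% (all 3 lists), 79.9% (wild-type plus replicate 2), 44.4% (wild-type only) and 46.5% (transgenic only). With promoters defined within 500 bp of a TSS, promoter shares were 3.86% (all 3 lists), 5.04% (wild-type plus replicate 2), 16.2% (wild-type only) and 17.4% (transgenic only). With promoters defined within 5000 bp, promoter shares were 15.5% (all 3 lists), 20.8% (wild-type plus replicate 2), 35.0% (wild-type only) and 32.0% (transgenic only). Without the sites at tRNA genes, an alternative chosen after seeing the data, rho with wild-type was 0.46 for replicate 1. Leaving out either TgN(38-40) replicate, so that 2 lists defined the classes, the classes held 3982 to 13496 (all 3 lists), 6863 to 16382 (wild-type only) and 38 to 916 (transgenic only) sites. In these comparisons, CTCF shares were 93.5% to 96.3% (all 3 lists), 57.0% to 77.5% (wild-type only) and 47.4% to 62.6% (transgenic only). In these comparisons, promoter shares were 5.98% to 6.99% (all 3 lists), 13.1% to 21.0% (wild-type only) and 20.7% to 39.5% (transgenic only). In these comparisons, the wild-type-only share was 33.7% to 80.4% on chromosome 2 and 33.9% to 81.4% on chromosome 10. The cause of these changes was not tested, beyond the fewer peaks that stricter lists hold. No paired analysis was possible because the wild-type list is a single library and no test was run. Depth is unknown, and its part in a missing peak was not tested. Genotype, assay and study of origin cannot be told apart.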
